A study of Mus musculus with 4 samples.

Results

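The HOX cluster genes are homeobox transcription factor genes that lie side by side in 4 clusters, Hoxa on chromosome 6, Hoxb on chromosome 11, Hoxc on chromosome 15 and Hoxd on chromosome 2. The 38 HOX genes described here are 10 of Hoxa, 10 of Hoxb, 9 of Hoxc and 9 of Hoxd. An open region was counted as a HOX region when its midpoint had the transcription start site (TSS) of one of these genes as nearest TSS, or when it overlapped the body of one of them. This gave 53 HOX regions of 70744 open regions in all, 47 by nearest TSS and 6 by gene body only. Open chromatin was mapped with ATAC-seq, a method that uses the Tn5 transposase to cut accessible DNA, in large peritoneal macrophages (LPMs), the main resident macrophages of the peritoneal cavity. LPMs were sorted from 9-week C57BL/6 mice, 40000 cells a library, all in library batch 1. Control mice were Rxrab fl/fl, with loxP-flanked alleles of the retinoid X receptor (RXR) genes Rxra and Rxrb, and have replicates 1 and 3, called the controls here. LysMCre+ Rxrab fl/fl mice (LysMCre+ here) carry the same floxed alleles plus a Cre recombinase driven from the LysM locus, which is active across myeloid cells and not in LPMs alone, and have replicates 1 and 2. The Reporting Summary of the study states that samples that did not group with their genotype were left out, and nothing in the labels says how many mice stand behind a library.

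HOX proteins give cells their position along the body axis. The genes of a cluster are numbered by paralogue group, and low numbers are used towards the head and high numbers towards the tail and the ends of the limbs. In embryos the clusters open in order from the low-numbered end in response to retinoic acid, which acts through heterodimers of RXR with the retinoic acid receptors, and in cells that do not use them they are held closed by Polycomb complexes. In blood cells some HOX genes are active in stem and progenitor cells and are shut off as macrophages mature.

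The regions that the results turn on are shown here as sequence of the mm10 build (GRCm38), 5′ to 3′ on the strand of the gene, with each CpG dinucleotide in capitals. The first is the part of the Hoxa5 region upstream of the TSS, at chr6:52204588-52204717 on the minus strand. It is shown because this was the HOX region called in all 4 libraries, and it has 20 CpG in 130 bases.
Hoxa5 upstream: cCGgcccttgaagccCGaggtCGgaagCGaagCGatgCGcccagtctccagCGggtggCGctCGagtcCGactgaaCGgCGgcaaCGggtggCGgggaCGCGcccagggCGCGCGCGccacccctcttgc
The strongest region of a cluster is taken here as the one with the highest mean log2 fold enrichment over the libraries that have a peak there. The summits of the regions so chosen in Hoxa and Hoxb lie in annotated 5′ UTRs, so only 30 bases at each summit are shown, for Hoxa10 at chr6:52240567-52240596 on the minus strand and for Hoxb4 at chr11:96318621-96318650 on the plus strand.
Hoxa10 summit: tgggcCGcaggctggatctccagcctCGcc
Hoxb4 summit: CGcaggcCGggtggccattggctCGgagga
Windows of 201 bp centred on the summit, none of them in a RefSeq exon, are shown for the promoter of Hoxa4 (chr6:52191854-52192054, minus strand), the Hoxc region so chosen, at Hoxc13 (chr15:102920810-102921010, plus strand) and the one in Hoxd, at Hoxd8 (chr2:74705188-74705388, plus strand).
Hoxa4 promoter: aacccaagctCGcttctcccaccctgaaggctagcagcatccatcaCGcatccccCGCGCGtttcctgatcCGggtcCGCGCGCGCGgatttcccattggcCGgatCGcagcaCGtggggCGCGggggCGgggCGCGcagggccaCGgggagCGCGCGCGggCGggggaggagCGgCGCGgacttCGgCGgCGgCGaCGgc
Hoxc13 promoter: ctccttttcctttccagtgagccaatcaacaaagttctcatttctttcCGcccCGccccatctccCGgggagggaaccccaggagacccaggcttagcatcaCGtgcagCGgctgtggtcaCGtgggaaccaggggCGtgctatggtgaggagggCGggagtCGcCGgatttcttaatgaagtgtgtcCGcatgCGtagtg
Hoxd8 promoter: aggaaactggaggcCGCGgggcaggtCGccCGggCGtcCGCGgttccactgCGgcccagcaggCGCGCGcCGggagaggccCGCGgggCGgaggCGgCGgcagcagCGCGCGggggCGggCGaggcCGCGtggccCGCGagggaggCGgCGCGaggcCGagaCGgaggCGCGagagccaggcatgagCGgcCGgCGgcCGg
Windows of the same length are shown for 2 intergenic regions that were called in both LysMCre+ libraries and in neither control library, upstream of Hoxa7 (chr6:52221712-52221912, minus strand) and of Hoxc8 (chr15:102987510-102987710, plus strand).
Hoxa7 upstream: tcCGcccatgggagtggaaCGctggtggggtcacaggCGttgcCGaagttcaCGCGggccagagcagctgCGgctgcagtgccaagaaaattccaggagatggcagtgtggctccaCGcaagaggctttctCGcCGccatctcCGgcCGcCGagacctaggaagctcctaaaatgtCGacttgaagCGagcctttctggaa
Hoxc8 upstream: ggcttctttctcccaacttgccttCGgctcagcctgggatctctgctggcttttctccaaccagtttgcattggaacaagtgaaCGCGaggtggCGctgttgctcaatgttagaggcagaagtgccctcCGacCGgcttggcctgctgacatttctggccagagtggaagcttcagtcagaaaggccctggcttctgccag
The GC share of these windows ran from 56.2% at Hoxc8 to 83.1% at Hoxd8, and the number of CpG from 6 to 37.

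The authors called peaks in each library separately with MACS2 at a q value of 0.05, and the libraries differed in how many they hold. Control replicates 1 and 3 hold 38048 and 16097 peaks, and LysMCre+ replicates 1 and 2 hold 65421 and 55581. The lowest background at any peak, which follows sequencing depth, was 1.97 and 1.06 tags per 200 bp in the controls and 1.33 and 1.08 in the LysMCre+ libraries. The library with the fewest peaks, control replicate 3, thus had a background close to that of LysMCre+ replicate 2. Peaks that overlapped between libraries by 1 bp or more were joined into merged regions, and a region without a peak in a library has no value there. Fold enrichment is the pileup of tags at the summit divided by the local background. With 2 libraries a genotype, an exact two-sided permutation test of a single value cannot go below 0.333, so no such test could pass a threshold of 0.05. Of 10 LPM marker genes, 8, 6, 8 and 8 had an open promoter in control replicates 1 and 3 and LysMCre+ replicates 1 and 2. None was counted for Csf1r and Prg4. Open promoters are counted by the midpoint of a region, as defined below, so a gene without one is not shown to be closed. Of 8 marker genes of mesothelial and stromal cells, which express HOX genes, 1, 0, 1 and 1 had an open promoter, and Msln, Upk3b, Wt1, Krt19, Lrrn4, Col1a1 and Col3a1 had none in any library.

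HOX regions were called at lower shares than all regions in the control libraries, and at shares nearer to those of all regions in the LysMCre+ libraries. A region enters the set when any library has a peak there, so each share is of the regions open in at least 1 of the 4 libraries. Of the 53 HOX regions, control replicate 1 had a peak at 11 (20.8%, against 52.0% of all merged regions). Control replicate 3 had a peak at 1 (1.89%, against 21.9%). LysMCre+ replicate 1 had a peak at 46 (86.8%, against 90.7%) and replicate 2 at 31 (58.5%, against 77.2%). Both LysMCre+ libraries were thus above both control libraries, as they were over all regions, and in each of the 4 libraries the HOX share was below the share of all regions.

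**Figure D1:**
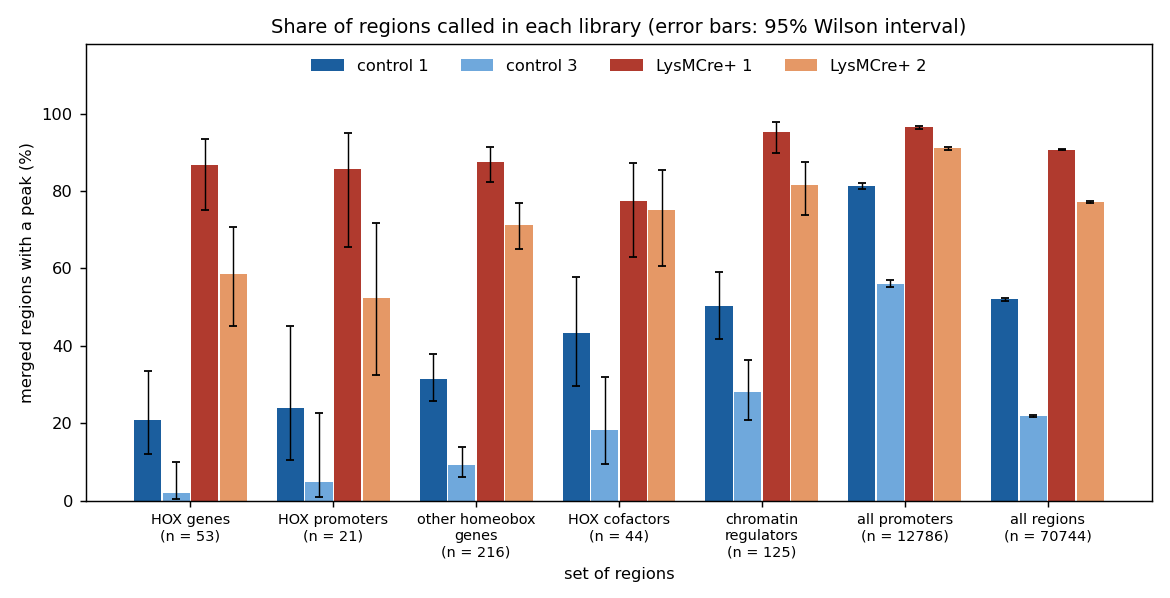
Share of merged regions with a peak (%, y axis) in each library, for HOX regions, HOX regions at a promoter, 4 comparison sets and all merged regions (x axis, with the number of regions). Bars are single libraries and error bars are 95% Wilson intervals, which cover counting over regions only. HOX regions were called at 20.8% and 1.89% in the control libraries and at 86.8% and 58.5% in the LysMCre+ libraries.

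All 11 HOX regions with a peak in a control library also had one in LysMCre+ replicate 1, and 7 of them in LysMCre+ replicate 2. LysMCre+ replicates 1 and 2 shared 24 HOX regions, which were 52.2% of those of replicate 1 and 77.4% of those of replicate 2. Over all merged regions the shared part was 77.0% and 90.5%. The pair of LysMCre+ libraries therefore overlapped less at HOX regions than over the genome. At regions of other homeobox genes outside the 4 clusters the shared part was 67.7% and 83.1%, also below the genome. In all, 25 of the 53 HOX regions (47.2%) had a peak in 1 library only, compared with 26.9% of all merged regions. That share was 38.0% at regions of other homeobox genes and 43.2% at those of HOX cofactor genes, so it was not high at HOX regions alone.

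Of the 53 HOX regions, 17 (32.1%) were called in both LysMCre+ libraries and in neither control library, against 22.8% of all merged regions. No HOX region was called in both control libraries and in neither LysMCre+ library, a pattern found at 0.0452% of all merged regions. A single HOX region (1.89%) was called in all 4 libraries, compared with 21.5% of all merged regions. This count follows the region rule, since a region within the Hoxb span but nearest to an antisense RNA gene was also called in all 4. Of the 24 HOX regions called in both LysMCre+ libraries, 70.8% had no peak in either control library. That share was 32.6% over all merged regions, 10.1% over promoters and 52.3% over 216 regions of other homeobox genes that lie outside the 4 clusters. The 17 regions of the 8 mesothelial and stromal marker genes were called at 23.5%, 5.88%, 82.4% and 82.4% in control replicates 1 and 3 and LysMCre+ replicates 1 and 2. Over all merged regions these shares were 52.0%, 21.9%, 90.7% and 77.2%, so that both sets were called more in the LysMCre+ libraries. Of the marker regions, 41.2% were called in both LysMCre+ libraries only, and 63.6% of the 11 called in both LysMCre+ libraries had no control peak. Their part in the HOX result was not tested. Without control replicate 3 the number called in both LysMCre+ libraries and not in the controls stayed at 17. Without LysMCre+ replicate 2, 35 regions were called in the remaining LysMCre+ library and in no control library.

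Whether a HOX region had a control peak varied with its strength in the LysMCre+ libraries. Among regions called in both LysMCre+ libraries with a geometric mean fold enrichment of 8 to 16, control replicate 1 had a peak at 4 of 5 HOX regions (80%) and at 83.0% of all regions. Below 8, it had a peak at 1 of 5 HOX regions under 5, at 0 of 5 between 5 and 6, and at 2 of 9 between 6 and 8. The shares over all regions in these ranges were 33.6%, 37.4% and 50.0%. Over promoters of all genes, control replicate 1 had a peak at 47.9%, 62.1%, 77.0% and 96.7% from the lowest to the highest range. Control replicate 3 had a peak at 0%, 0%, 0% and 20% of the HOX regions, against 5.34%, 6.37%, 11.8% and 38.8% of all regions. The HOX region without a control peak in the strongest range was that of Hoxa10, described below.

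HOX peaks were lower than typical peaks of their library. Median fold enrichment at HOX regions was 5.95 in control replicate 1, against 8.42 over all regions called there. It was 5.94 against 8.17 in LysMCre+ replicate 1 and 5.24 against 7.31 in LysMCre+ replicate 2. The 1 HOX peak of control replicate 3 had 9.30, against a median of 7.45. Regions of other homeobox genes had medians of 6.4 and 5.92 in control replicates 1 and 3, and 6.17 and 5.79 in LysMCre+ replicates 1 and 2. Each of these was also below the median of all regions. HOX regions were also narrower, with a median width of 304 bp (200 to 654 bp) against 383 bp, and 336 bp at other homeobox genes. At the 11 regions shared with control replicate 1, LysMCre+ replicate 1 had the higher fold enrichment at 9, against 70.2% of all shared regions. At the 7 shared by LysMCre+ replicate 2 it had the higher value at 2, against 46.5% of all. The LysMCre+ libraries therefore did not lie on the same side of control replicate 1 at most of the regions that all 3 called.

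**Figure D2:**
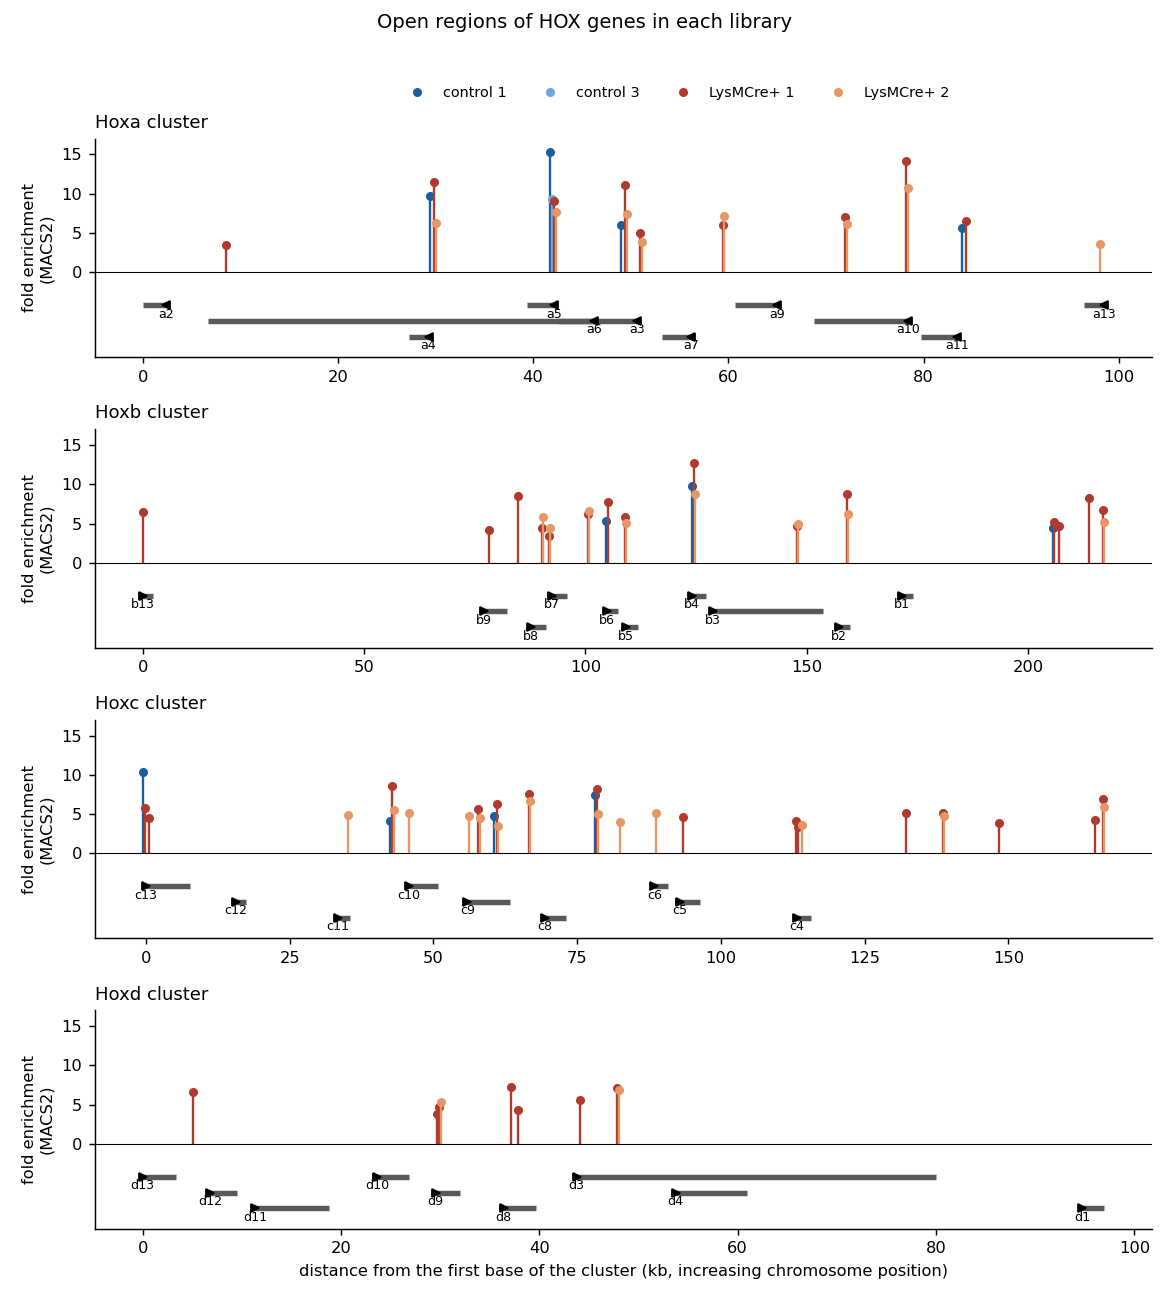
HOX regions along each cluster, plotted as fold enrichment at the summit (y axis, linear) against the distance from the first base of the cluster (x axis, kb). Grey bars are the HOX genes, with the arrowhead at the TSS, and colours are the 4 libraries. Peaks of control replicate 3 were limited to Hoxa5, and Hoxd had peaks in the LysMCre+ libraries only.

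The clusters were compared by the share of their regions that each library called. Hoxa has 10 regions, with peaks at 4, 1, 9 and 8 of them in control replicates 1 and 3 and LysMCre+ replicates 1 and 2. Hoxb has 15 regions, with peaks at 3, 0, 15 and 8 in the same order. Hoxc has 21 regions, with peaks at 4, 0, 15 and 13. Hoxd has 7 regions, with peaks at 0, 0, 7 and 2. In control replicate 1 these are 40% of Hoxa (95% Wilson interval 16.8 to 68.7%), 20% of Hoxb (7.0 to 45.2%), 19% of Hoxc (7.7 to 40%) and 0% of Hoxd (0 to 35.4%). These intervals overlap one another. In LysMCre+ replicate 1 the shares were 90% of Hoxa (59.6 to 98.2%), 100% of Hoxb (79.6 to 100%), 71.4% of Hoxc (50.0 to 86.2%) and 100% of Hoxd (64.6 to 100%). Regions of 1 library share their source, and differences between the clusters were not tested.

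Counted over the 4 libraries together, all clusters held more open regions per length than the autosomes did, whereas in single libraries some clusters lay below. Within the span from the first to the last base of these genes, there were 10.2 regions per 100 kb in Hoxa, 9.77 in Hoxb, 13.8 in Hoxc and 8.25 in Hoxd, against 2.87 over all autosomes. The share of bases under a peak in control replicate 1 was 1.34% in Hoxa and 0.734% in Hoxb, against 0.623% over the autosomes, and 0.595% in Hoxc and 0% in Hoxd. In LysMCre+ replicate 1 it was 3.23% in Hoxa, 3.25% in Hoxb, 2.75% in Hoxc and 2.15% in Hoxd, against 1.08%. In LysMCre+ replicate 2 it was 2.91% in Hoxa, 2.34% in Hoxb and 2.68% in Hoxc, against 0.985%, and 0.59% in Hoxd. In control replicate 3 it was 0.352% in Hoxa, against 0.234%, and 0.155% in Hoxb, 0% in Hoxc and 0% in Hoxd. The autosomal share was thus exceeded by all clusters in LysMCre+ replicate 1 alone. The clusters are short and hold many TSSs, so the density per length is given as a description. Of the 53 regions, 26 lay within 1 kb of a HOX TSS and 9 lay over 10 kb away, 4 of them beyond Hoxb1 and 5 beyond Hoxc4, where the nearest HOX gene is the last of its cluster.

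Of the 38 genes, 29 had at least 1 region. Hoxa2, Hoxa6, Hoxa9, Hoxc12, Hoxd1, Hoxd4, Hoxd10, Hoxd11 and Hoxd13 had none, 5 of them in Hoxd. In control replicates 1 and 3, 11 and 2 genes had a region, and in LysMCre+ replicates 1 and 2, 26 and 22. The 2 genes of replicate 3 are Hoxa5 and Hoxa3, since the Hoxa5 promoter lies within the long Hoxa3 transcript. An open promoter, defined as a region whose midpoint lay at most 1 kb upstream or 200 bp downstream of a TSS, was found at 4 and 1 HOX genes in the controls and at 11 and 8 in the LysMCre+ libraries. These are 10.5%, 2.63%, 28.9% and 21.1% of the 38 genes, compared with 44.3%, 32.6%, 49.9% and 47.5% of all 24963 autosomal RefSeq genes. In all, 14 of the 38 genes had an open promoter in at least 1 library. The rule goes by midpoints, so a peak close to a TSS can be left out. The Hoxb6 region with its midpoint 205 bp downstream covers the TSS but was not counted. Those of Hoxb4 (479 bp downstream) and Hoxa10 (286 bp downstream) were not counted either.

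Anterior genes, of paralogue groups 1 to 8, had 36 regions and posterior genes, of groups 9 to 13, had 17. In control replicate 1, 7 anterior regions (19.4%, 95% Wilson interval 9.8 to 35.0%) and 4 posterior regions (23.5%, 9.6 to 47.3%) were called. In control replicate 3, 1 anterior region (2.78%) and 0 posterior regions were called. In LysMCre+ replicate 1, 33 anterior (91.7%, 78.2 to 97.1%) and 13 posterior regions (76.5%, 52.7 to 90.4%) were called, and in LysMCre+ replicate 2, 21 (58.3%, 42.2 to 72.9%) and 10 (58.8%, 36.0 to 78.4%). The anterior share was the higher in 2 libraries and the lower in the other 2, and the intervals overlapped in all 4. This split depended on the rule for regions. With the 47 regions chosen by nearest TSS alone, the anterior share was the higher in all 4 libraries, with 22.6% against 18.8%, 3.23% against 0%, 90.3% against 75.0%, and 61.3% against 56.2%. The intervals cover counting over regions only. Median fold enrichment was 7.43 at anterior and 5.17 at posterior regions in control replicate 1. It was 5.87 and 6.29 in LysMCre+ replicate 1, and 5.85 and 5.00 in LysMCre+ replicate 2. By gene, 18 of 22 anterior and 11 of 16 posterior genes had a region, where a region in 2 genes counts for both. The share of genes with a region was higher for anterior than for posterior genes in all 4 libraries, with 31.8% against 25.0%, 9.09% against 0%, 77.3% against 56.2%, and 72.7% against 37.5%. These differences were not tested.

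The Hoxa5 promoter was the HOX region with a peak in every library. Hoxa5 acts in patterning of the neck, chest and lung. Its region (chromosome 6, 52204265 to 52204717, minus strand gene) has its midpoint 96 bp downstream of the TSS, spans the upstream sequence shown above, and also lies within Hoxa3. Fold enrichment was 15.28 and 9.30 in control replicates 1 and 3, and 9.03 and 7.60 in LysMCre+ replicates 1 and 2. Both control libraries were above both LysMCre+ libraries, though replicate 3 only by a little. The pileup at the summit was 69 and 23 tags in the controls and 25 and 25 tags in the LysMCre+ libraries, so that on tags alone the groups overlapped.

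Set against the median of the 15199 regions called in all 4 libraries, the Hoxa5 promoter was 1.05 and 1.24 times the median in the controls and 0.60 and 0.63 times in the LysMCre+ libraries. It stood at the 55.1 and 67.6 percentile of these regions in the controls and at the 13.7 and 15.7 percentile in the LysMCre+ libraries. With log2 fold enrichment centred on the library median and limma fitted over all 15199 regions, its log2 fold change was −0.89 (SE 0.21, adjusted p = 0.0658) for LysMCre+ minus control, which did not pass the threshold. A call needed a log2 fold change past 1 with an adjusted p under 0.05, and limma so called 0.0395% of regions higher and 0.0461% lower in the LysMCre+ libraries. By the region rule used here it was the 1 HOX region that could be tested this way, and its unadjusted p from limma was 0.000924. With limma on the log2 summit pileup, again minus the median of the library, the log2 fold change was −1.50 (SE 0.30, adjusted p = 0.02) and the region passed as lower in the LysMCre+ libraries, as did 4.46% of all regions tested, against 2.86% that passed as higher. Without control replicate 1 it was −1.01 (adjusted p = 0.00205 from limma) and without replicate 3 it was −1.11 (adjusted p = 0.0376 from limma), both past the threshold, as were 3.57% and 1.28% of all regions in the lower direction. Without LysMCre+ replicate 1 or 2 it was −0.85 or −0.93 (adjusted p = 0.366 or 0.355 from limma). The call therefore depended on the scale and on the libraries used, and the sign did not in these fits.

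**Figure D3:**
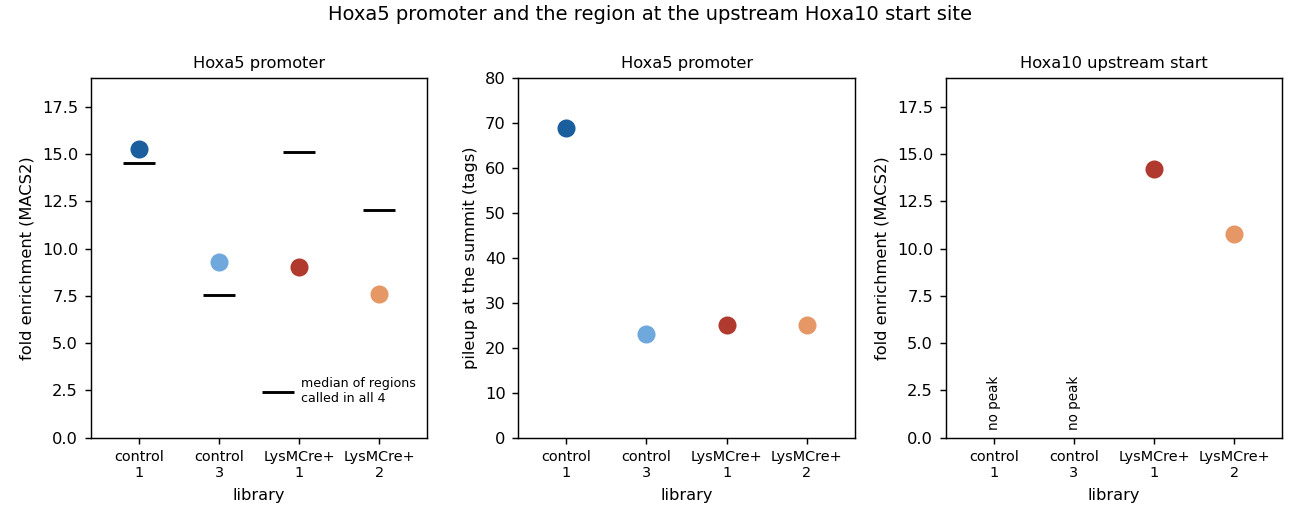
Hoxa5 promoter and the region at the upstream Hoxa10 TSS in each library (x axis). The left and right plots give fold enrichment and the middle plot the pileup in tags, points are single libraries, and black lines are the median of the regions called in all 4 libraries. Hoxa5 was near or above that median in the controls (15.28 and 9.30) and below it in the LysMCre+ libraries (9.03 and 7.60), and Hoxa10 had peaks in the LysMCre+ libraries only (14.19 and 10.77).

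The strongest HOX region of both LysMCre+ libraries was at Hoxa10, a gene of blood progenitors and of the uterus. It lies at chromosome 6, 52240402 to 52240734, in the 5′ UTR of the longer annotated transcript, 286 bp downstream of its TSS. Fold enrichment was 14.19 and 10.77 in LysMCre+ replicates 1 and 2, with a pileup of 41 and 44 tags, and neither control library had a peak. The highest HOX value of any library was that of the Hoxa5 promoter in control replicate 1. The Hoxa10 region stood at the 79.9 and 74.6 percentile of all regions called in them. A second Hoxa10 region, in the coding exon 640 bp from the nearest Hoxa10 TSS, had 6.98 and 6.11 in the LysMCre+ libraries and also no peak in the controls. With no peak the deposited lists hold no value for the controls, so no fold change can be given for either.

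The other Hoxa regions showed peaks in the controls only in replicate 1. The promoter of Hoxa4, with its midpoint at −425 bp from the TSS, had 9.68 in control replicate 1 and 11.51 and 6.21 in LysMCre+ replicates 1 and 2. An intronic region of Hoxa3, a gene of pharyngeal and neck development, had 5.95 in control replicate 1 and 11.08 and 7.46 in the LysMCre+ libraries. At Hoxa4 the control value lay between the LysMCre+ values and at Hoxa3 below both. Upstream of Hoxa7, 3.15 kb from its TSS, fold enrichment was 6.01 and 7.14 in the LysMCre+ libraries alone. The Hoxa11 promoter had 5.63 in control replicate 1 and 6.49 in LysMCre+ replicate 1.

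In Hoxb, the strongest region was at Hoxb4, known for promoting self-renewal of blood stem cells. It lies at chromosome 11, 96318440 to 96319051, in the 5′ UTR, 479 bp downstream of the TSS. Fold enrichment was 9.79 in control replicate 1, 12.73 in LysMCre+ replicate 1 and 8.80 in LysMCre+ replicate 2, and the control value lay between the other 2. Control replicate 3 had no peak there. A region in Hoxb2, a hindbrain patterning gene, covers the promoter of the antisense RNA Hoxb3os and had 8.71 and 6.25 in the LysMCre+ libraries alone. ATAC-seq does not separate the strands, so this region cannot be given to the sense or the antisense gene. All 10 Hoxb genes had a region in LysMCre+ replicate 1, and 3 had one in control replicate 1. Hoxb1 is in both counts, though its regions lie 34.4 to 45.3 kb beyond its TSS. The one called in control replicate 1 lies 34.4 kb away, with 4.38.

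In Hoxc, the region with the largest mean over the libraries with a peak was the Hoxc13 promoter, whose gene acts in hair and nail formation. It lies at chromosome 15, 102920655 to 102921055, with its midpoint at −276 bp from the TSS, and had 10.39 in control replicate 1, 5.74 in LysMCre+ replicate 1 and no peak in the other 2 libraries. Its mean rests on control replicate 1. In LysMCre+ replicate 1 the highest Hoxc values were 8.52 upstream of Hoxc10 and 8.18 at a region 8.95 kb from the Hoxc8 TSS. Besides the Hoxa5 promoter, Hoxc13 had the HOX region at which control replicate 1 exceeded LysMCre+ replicate 1. A region 2.95 kb upstream of Hoxc8 had 7.52 and 6.73 in the LysMCre+ libraries, the latter the highest Hoxc value of replicate 2, and no peak in the controls. Of the 21 Hoxc regions, 13 had a peak in 1 library only.

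In Hoxd, which acts in the limbs, the gut end and the genital tract, no region was called in the controls. The region with the largest mean was the Hoxd8 promoter (chromosome 2, 74705167 to 74705451, midpoint at −180 bp from the TSS), with 7.26 in LysMCre+ replicate 1 and no peak elsewhere. A region within Hoxd3 at the promoter of its antisense RNA Hoxd3os1 had 7.14 and 6.82 in the LysMCre+ libraries alone, and a region in the 5′ UTR of Hoxd9 had 4.73 and 5.40. The other 5 of the 7 Hoxd regions rested on LysMCre+ replicate 1 only.

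**Figure D4:**
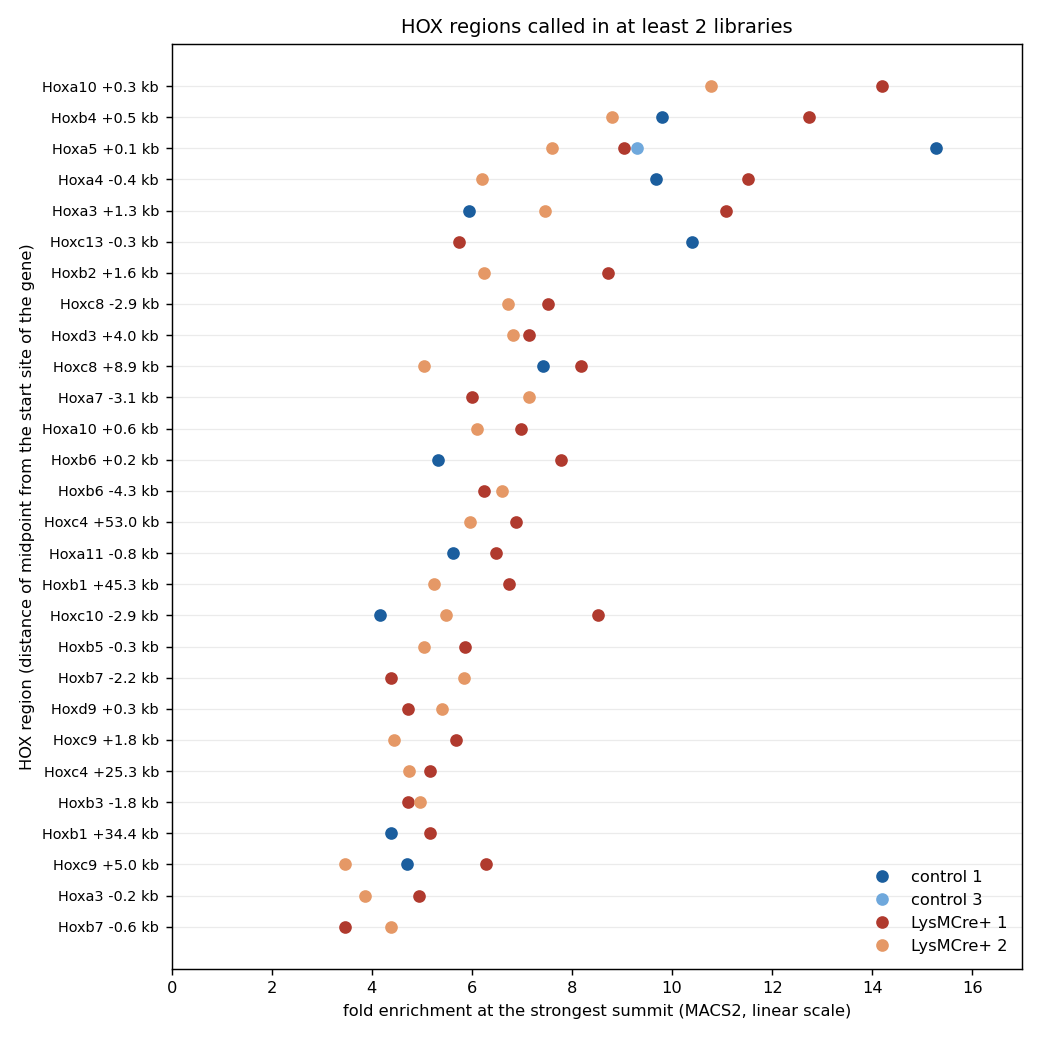
Fold enrichment at the strongest summit (x axis, linear) of the HOX regions called in at least 2 libraries (y axis, gene and distance of the midpoint from its TSS), ordered by mean log2 fold enrichment. Points are single libraries, and a missing point is a library with no peak. Hoxa10 tops the order with LysMCre+ points only, and Hoxa5 alone has a point for each library.

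The number of peaks per library bore strongly on these counts. When each library was reduced to its 16097 peaks of lowest q value, the number in the smallest library, 3 HOX regions remained. The Hoxa5 promoter was called in both control libraries and in neither LysMCre+ library. Hoxb4 (8.80) and the upstream Hoxa10 region (10.77) were called in LysMCre+ replicate 2 only. The libraries so had 1, 1, 0 and 2 HOX regions, and of the 22300 merged regions of this set they had 71.4%, 69.5%, 71.9% and 72.0%. At equal peak numbers no HOX region was called in both LysMCre+ libraries only, and 1 was called in both control libraries only. These counts are too small to give a direction, and the shares of all regions with these patterns are not given here. In the full peak lists, 2, 1, 7 and 6 of 8 marker genes of small peritoneal macrophages and monocytes had an open promoter. The libraries are in the same order, and over all genes the shares were 44.3%, 32.6%, 49.9% and 47.5%. Peak number and genotype cannot be told apart in these marker counts, and the part of the markers in the HOX result was not tested.

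HOX regions were rich in CpG also outside the promoter window. In a window of 201 bp at the summit, the median GC share was 61.7% at HOX regions against 51.7% over all regions. The median ratio of observed to expected CpG was 0.70 against 0.28, and it was above 0.6 at 36 HOX regions (67.9%) against 20.3%. Of the HOX regions, 21 (39.6%) were at a promoter, 15 of them at that of a HOX gene and the others at an antisense or other RNA gene, against 18.1% of all regions. The 32 HOX regions outside promoters include some close to a HOX TSS, as at Hoxb6 (205 bp downstream) and Hoxb4 (479 bp downstream). Their ratio was above 0.6 at 19 (59.4%), against 9.08% of all regions outside promoters. At the 11 HOX regions with a control peak it was above 0.6 at 10, and at the 17 called in both LysMCre+ libraries only it was above 0.6 at 11 (64.7%), against 10.3% of all regions with the latter pattern. At promoters, HOX regions were called at 23.8%, 4.76%, 85.7% and 52.4% in the 4 libraries, against 81.3%, 56.0%, 96.5% and 91.0% of all promoter regions. The low HOX share in the controls was thus also seen among promoters. HOX promoter peaks were weaker, with a median fold enrichment of 5.81 and 5.12 in LysMCre+ replicates 1 and 2. At all promoters it was 12.7 and 10.2. HOX regions of all kinds were set beside promoters of like strength above, but HOX promoters on their own were not.

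Short motifs were searched on both strands in the same windows. GATA sites (AGATAA or TGATAA), bound by GATA factors such as the LPM regulator GATA6, were found in 3 of 53 HOX regions (5.66%) and in 10.6% of all regions. MEIS sites (TGACAG), bound by cofactors of HOX proteins, were found in 6 (11.3%) against 16.6%. HOX-PBX sites (TGATNNAT, which can overlap TGATAA) were found in 2 (3.77%) against 4.8%. One of these lies in the Hoxa4 promoter shown above, as TGATGGAT on the opposite strand. PU.1 sites (GAGGAAGT), bound by the macrophage factor PU.1, were found in 2 (3.77%) against 9.3%. The CTCF motif was found in 0 HOX regions against 3.9%. Over all promoter regions the shares were 4.13% for GATA, 11.8% for MEIS, 1.65% for HOX-PBX, 3.55% for PU.1 and 1.17% for CTCF. The HOX shares of GATA, MEIS, PU.1 and CTCF sites were nearer to these than to those of all regions. The HOX-PBX share was nearer to that of all regions. Direct repeats of the nuclear receptor half-site AGGTCA, for which AGTTCA as well as GGGTCA and also GGTTCA were accepted, spaced by 5, 2 or 1 bp, named DR5, DR2 and DR1 and bound by RXR heterodimers, were found in 0 HOX regions against 0.151%, 0.136% and 0.164% of all regions.

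Across the whole spans of the 4 clusters, 4 DR5, 2 DR2 and 2 DR1 matches were found, together with 1 CTCF match in Hoxb, and none of them lay within a called region of any library. The direct repeats are shown with 8 bases on either side and the half-sites in capitals, because RXR is the factor deleted here. The Hoxa DR5 lies at chr6:52175525-52175557 on the minus strand, within Hoxa3. The Hoxb DR5 matches lie at chr11:96341228-96341260 on the plus strand, 2.52 kb upstream of a Hoxb3 TSS, and at chr11:96212021-96212053 on the minus strand, 17.7 kb from Hoxb13. The Hoxd DR5 lies at chr2:74741532-74741564 on the plus strand, 19.6 kb from Hoxd4.
Hoxa DR5: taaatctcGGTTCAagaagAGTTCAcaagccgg
Hoxb DR5 near Hoxb3: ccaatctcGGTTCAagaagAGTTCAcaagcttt
Hoxd DR5: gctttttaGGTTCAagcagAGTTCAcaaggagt
Hoxb DR5 near Hoxb13: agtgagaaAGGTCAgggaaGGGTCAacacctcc
Of the 4 DR5 matches, 3 share the same pair of half-sites, 1 in each of Hoxa, Hoxb and Hoxd. The nearest called region to the match near Hoxb3 was 617 bp away. The DR2 matches lie at chr6:52233808-52233837 on the plus strand, near Hoxa10, and at chr11:96359128-96359157 on the plus strand, near Hoxb1.
Hoxa DR2: taaaaacaAGTTCAgaAGGTCAgcctgccg
Hoxb DR2: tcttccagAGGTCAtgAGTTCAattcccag
The nearest called region to the Hoxa DR2 was 313 bp away, the coding-exon region of Hoxa10. The DR1 matches both lie in Hoxb, at chr11:96344838-96344866 on the minus strand, 1.08 kb from a Hoxb3 TSS, and at chr11:96207917-96207945 on the plus strand, 13.6 kb from Hoxb13.
Hoxb DR1 near Hoxb3: tgttggtcAGGTCAgAGGTCAtcaggtag
Hoxb DR1 near Hoxb13: gctgactgGGGTCAgAGGTCAgggtcggc
The nearest called regions to the DR1 matches were 2713 and 3968 bp away. A match of letters is a description, and does not show binding.

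The genes that work with HOX proteins or on HOX chromatin mostly had open promoters. Of 9 cofactor genes of the PBX, MEIS and PREP families, 7, 5, 7 and 7 had an open promoter in the 4 libraries, with Meis2 and Pknox2 in none. Of 22 genes for Polycomb, trithorax and architectural proteins that act on HOX loci, 19, 16, 19 and 19 had an open promoter, with Ezh2, Kdm6b and Phc3 in none. Here too, none means that no region had its midpoint in the promoter window. A peak with its midpoint further downstream is not counted. Of 63 other homeobox genes, which mostly act in embryos, 13, 4, 21 and 15 had an open promoter. Over all autosomal RefSeq genes the shares with an open promoter were 44.3%, 32.6%, 49.9% and 47.5%. The regions of these other homeobox genes were called at 31.5%, 9.26%, 87.5% and 71.3% in the 4 libraries, which is the same order of libraries as at the HOX regions. The regions of the cofactor genes were called at 43.2%, 18.2%, 77.3% and 75.0%, and those of the chromatin genes at 50.4%, 28.0%, 95.2% and 81.6%. Over all merged regions the shares were 52.0%, 21.9%, 90.7% and 77.2%. The cofactor shares were thus below those of all regions in each library. The promoters of Rxra and Rxrb were called in all 4 libraries.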

How the data were processed

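Peaks of 4 ATAC-seq libraries of LPMs were compared, 2 for each genotype. Per the study's methods, the authors trimmed reads with cutadapt, aligned them to mm10 with Bowtie2, discarded duplicates, low-quality alignments and those to the mitochondrial genome and the X and Y chromosomes, called peaks per library with MACS2 2.1.1 at a q value of 0.05, and removed blacklisted regions. The deposited lists give fold enrichment at the summit, a ratio to the local background, and the −log10 of the p-value and q-value. The deposited score column was not used. The lists hold no read counts, so the authors' edgeR test was not repeated.

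Pileups were solved from the fold enrichment and p-value with a pseudocount of 1 (98.2 to 100% of peaks). Peaks sharing at least 1 bp were merged. TSSs were those of 43783 RefSeq NM and NR transcripts on the autosomes of the same build, and sequences were read from that RefSeq genome. limma 3.58.1 in R 4.3.3 was fitted on log2 fold enrichment minus the library's own median, over regions called in all 4 libraries, with Benjamini-Hochberg adjustment. The limma and motif steps were tested on simulated data. Other steps used Python 3.11.15, numpy 2.4.6, pandas 2.3.3 and scipy 1.17.1.

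Depth was judged from the lowest background, since the lists hold no read totals. Intervals on shares are Wilson intervals. Alternatives were a stricter q value (0.01), equally many peaks in each library, windows of 100 bp on both sides of the summit, other TSS and region rules, each library left out, the pileup, and other limma settings. The regions named are the strongest of each cluster by mean log2 fold enrichment across the libraries with a peak, those called in all 4 libraries, the 5 strongest called in both libraries of one genotype only, and the region with the lowest adjusted p. Other regions given with values were chosen after their values were seen. The HOX genes, the other gene lists and the tests were chosen with earlier results of these data known.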

Additional observations from a re-analysis of the deposited data

How the results depend on the processing

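The HOX counts changed most with the number of peaks taken per library, and the effect of depth was not tested. With an equal number of peaks per library, 3 HOX regions were left, called at 1, 1, 0 and 2 in control replicates 1 and 3 and LysMCre+ replicates 1 and 2. Then 0 were called in both LysMCre+ libraries only and 1 in both control libraries only, where the full lists had 17 and 0. With 3 regions left, no direction can be read from these counts. The shares of all regions with these patterns are not given for this setting. The shares called in that setting were 50% of 2 anterior regions in each control library and 0% in LysMCre+ replicate 1, and of the 1 posterior region 0% in control replicate 1, 0% in LysMCre+ replicate 1 and 100% in LysMCre+ replicate 2. With TSSs of NM transcripts only, control replicate 3 had 2 HOX regions, and 2 HOX regions could be tested by limma, of which 0 passed. With anterior taken as paralogue groups 1 to 3, the anterior share was 0% in control replicate 3 and 100% in LysMCre+ replicate 1. With regions at a HOX TSS only, the posterior share of LysMCre+ replicate 2 was 33.3%, below the anterior share of 66.7%. The anterior share also turned from below to above the posterior share with regions by nearest TSS alone (22.6% against 18.8% in control replicate 1, 61.3% against 56.2% in LysMCre+ replicate 2) and in LysMCre+ replicate 2 without LysMCre+ replicate 1 (91.3% against 83.3%). Leaving out 1 library in turn gave 35 to 53 HOX regions in all, 17 to 35 called in the remaining LysMCre+ libraries only (35 without LysMCre+ replicate 2), 0 to 1 passing limma, and a log2 fold change at Hoxa5 of −1.11 to −0.85. The shares then ran from 91.7 to 100% (anterior) and 76.5 to 100% (posterior) in LysMCre+ replicate 1, and from 58.3 to 91.3% and 58.8 to 83.3% in LysMCre+ replicate 2. On the summit pileup 1 HOX region passed limma, with a log2 fold change of −1.50. Where a genotype had 1 library left, it was assumed to vary like the other libraries. The Hoxa5 change was −0.63 (adjusted p = 0.299 from limma) over regions called in at least 2 libraries, −0.82 (0.0635) after quantile normalization and −0.89 (0.0137) with a mean-variance trend, where the size stayed under the threshold of 1. A further 138 values kept their side or moved by less than the limit set for them, and the log2 fold change at Hoxa5 was negative in each fit. The causes were not tested. No paired analysis was made, because the labels record no pairing of the libraries.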

Other observations

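Within the spans of the 4 clusters, 8 more regions were nearest to the TSS of a gene that is not one of the 38. The strongest lies in Hoxb, at chromosome 11, 96311387 to 96312043, nearest to the antisense RNA gene Hoxb5os and 4.80 kb upstream of its TSS. Fold enrichment there was 10.42 and 4.1 in control replicates 1 and 3 and 12.07 and 9.59 in LysMCre+ replicates 1 and 2, so that it was called in all 4 libraries. A region 3.44 kb from the TSS of Mir196a-1, a microRNA gene between Hoxb13 and Hoxb9, had 4.38 in control replicate 1 and 12.22 and 7.69 in the LysMCre+ libraries. A region 2.23 kb from Mir10a, upstream of Hoxb4, had 4.03 and 4.02 in the LysMCre+ libraries alone. A region near Hotair, an antisense RNA gene of Hoxc, had 3.78 in LysMCre+ replicate 1 alone.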
